A study of Homo sapiens with 6 samples.

Results

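The acute-phase protein genes described here are HP, HPR, CRP, APCS, SAA1, SAA2, SAA4, ORM1, ORM2 and LBP. They are 10 of the 20033 protein-coding genes of GENCODE release 44. All were chosen by name, as genes of acute-phase proteins or of their relatives, with earlier results of these data known. They lie in 6 loci, since HP and HPR are neighbours on chromosome 16, SAA1, SAA2 and SAA4 form a cluster on chromosome 11, ORM1 and ORM2 are adjacent on chromosome 9, CRP and APCS lie apart on chromosome 1, and LBP is on chromosome 20. Neighbouring genes share peaks and are not independent of each other. The study pulled down native mononucleosomes of untreated HepG2 cells, a human hepatoblastoma line, with the GST-tagged tandem Tudor domain (TTD) of UHRF1 (CIDOP) or with an antibody against H3K9me2 (ChIP), beside input chromatin. Each of these 3 groups had 2 biological replicates, which makes 6 libraries. Only the list of 31569 broad TTD peaks, called by the authors on the mean of both TTD replicates, was used here. The list has no score, so there is no value per replicate and no replicate error, and the read depth behind a peak is unknown.

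The acute-phase response is the change in plasma proteins that hepatocytes make during infection or injury, driven mainly by interleukin-6 and interleukin-1 through STAT3, C/EBP and NF-kB factors. The proteins whose level rises scavenge haemoglobin, bind bacterial lipids and damaged cells, or travel on lipoproteins. The TTD is a histone reader domain of UHRF1, a factor of maintenance DNA methylation, and binds the tail of histone H3 methylated at lysine 9. HepG2 cells retain the synthesis of many plasma proteins of hepatocytes, but no expression value was used here.

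The 300 bases from 250 before to 50 after the transcription start site (TSS) are shown for CRP, APCS, SAA4 and ORM1. They come from a set of RefSeq promoters (GRCh38.p14) in which only these 4 of the 10 genes had an entry. The sequences are read in the direction of transcription. Of the 4, only SAA4 had its start within a TTD peak. HP and LBP, which had no entry, also had theirs in one. Capitals mark matches on either strand to TTNNGNAA, a C/EBP-type pattern.
SAA4: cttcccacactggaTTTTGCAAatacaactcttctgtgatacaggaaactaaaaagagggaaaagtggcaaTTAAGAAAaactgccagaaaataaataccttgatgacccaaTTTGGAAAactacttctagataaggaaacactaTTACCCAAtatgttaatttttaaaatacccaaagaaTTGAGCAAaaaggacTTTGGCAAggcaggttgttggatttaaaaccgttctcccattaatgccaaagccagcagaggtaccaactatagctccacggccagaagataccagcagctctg
CRP: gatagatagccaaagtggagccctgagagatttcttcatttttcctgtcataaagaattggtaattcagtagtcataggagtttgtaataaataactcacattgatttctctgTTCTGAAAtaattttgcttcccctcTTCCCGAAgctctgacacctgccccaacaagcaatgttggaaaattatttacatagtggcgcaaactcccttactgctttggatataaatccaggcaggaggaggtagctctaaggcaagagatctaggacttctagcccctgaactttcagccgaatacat
APCS: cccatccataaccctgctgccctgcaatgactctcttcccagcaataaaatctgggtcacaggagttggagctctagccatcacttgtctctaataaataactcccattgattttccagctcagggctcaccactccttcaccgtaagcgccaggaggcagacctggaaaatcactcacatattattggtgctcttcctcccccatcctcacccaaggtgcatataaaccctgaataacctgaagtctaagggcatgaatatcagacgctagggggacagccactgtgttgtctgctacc
ORM1: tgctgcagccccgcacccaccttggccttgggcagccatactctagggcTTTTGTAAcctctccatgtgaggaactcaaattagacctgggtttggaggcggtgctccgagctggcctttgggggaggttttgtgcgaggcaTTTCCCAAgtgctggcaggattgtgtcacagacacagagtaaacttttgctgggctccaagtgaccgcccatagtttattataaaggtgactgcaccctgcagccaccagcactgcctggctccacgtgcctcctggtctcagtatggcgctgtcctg
The SAA4 sequence (chr11:18236753-18237052, minus strand) was covered by a TTD peak to 100% and had 6 matches and 2 CpG sites. None of the other sequences overlapped a peak. CRP (chr1:159714540-159714839, minus strand) and ORM1 (chr9:114322848-114323147, plus strand) had 2 matches each, and APCS (chr1:159587576-159587875, plus strand) had 0. The pattern was present in 36.8% of 35116 promoters of this length. Its fixed letters are mostly A or T, and the GC content was 38.7% in SAA4, 41% in CRP, 49.7% in APCS and 56.3% in ORM1. The effect of base composition on the number of matches was not tested. The HNF1 half-site GTTAAT was found once in SAA4 and in 6.88% of all promoters, and the STAT-type pattern TTCNNNGAA, held by 7.66% of promoters, was absent from all 4 sequences. An NF-kB-type pattern was found once each in APCS and ORM1, and in 58.7% of promoters. In ORM1 this match overlapped the second C/EBP-type match, and no other overlap between the 4 patterns was found. CRP and APCS had 3 CpG sites each and ORM1 had 7, against a median of 14 per promoter. A match describes the letters only and is not a measured binding site.

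Cover denotes the share of the bases of a window inside TTD peaks, in percent. Within 2.5 kb on each side of the TSS, 6 of the 10 genes had a TTD peak, namely HP, HPR, CRP, SAA4, ORM2 and LBP (60%, 95% Wilson interval 31.3 to 83.2%). Of all protein-coding genes, 16.9% had one. The median cover of this window was 29.7% for the acute-phase genes, and their mean was 38.3%. The median was 6.39% when peaks narrower than the median width of all peaks were left out, and the mean was 24.4% without the haptoglobin genes. Over all protein-coding genes the median was 0 and the mean 5.30%. The TSS base itself lay inside a peak in HP, SAA4 and LBP, 3 of 10 genes (10.8 to 60.3%), against 2.94% of all genes. The Wilson intervals treat genes as independent and cover counting error only, and the peak list gives no sample over which to test a difference.

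A peak overlapped the gene body in 8 of the 10 genes (80%, 49.0 to 94.3%), all but APCS and SAA1. The overlaps of ORM1 and ORM2 were only 129 and 41 bp. A peak of any width was found there in 34.2% of all protein-coding genes. At least 150 bp of the body lay in peaks in 6 of the 10 genes and in 34% of all genes. When peaks narrower than the median of 2250 bp were left out, 5 of the 10 genes and 20.5% of all genes had a peak in the body. Acute-phase genes are short, with a median length of 4583 bp against 27471 bp, and among the genes no longer than LBP, the longest of them, 15.2% had a peak in the body. The median cover of the body was 17.3%, against a median of 0 and a mean of 3.39% over all genes. Within 100 kb on each side of the TSS, 9 of 10 genes had a peak, a share near the 77.9% of all genes. The cover at this scale had a median of 7.92% for the acute-phase genes and 2.00% for all genes.

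**Figure D1:**
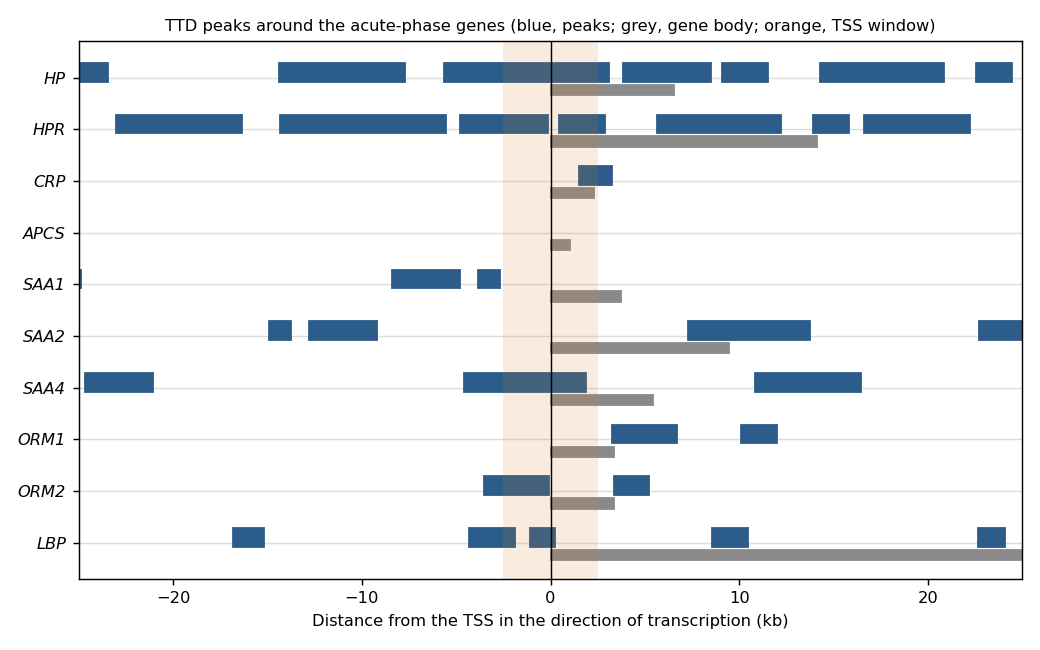
TTD peaks (blue) and gene bodies (grey) drawn to scale against the distance from the TSS in kb, in the direction of transcription, for the 10 acute-phase genes. The orange band is the window of 2.5 kb on each side of the TSS, which is filled in HP, has a peak in 6 genes, and is empty in APCS, SAA1, SAA2 and ORM1.

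HP encodes haptoglobin, the plasma protein that captures free haemoglobin, and was the most covered of the 10 genes. HP (ENSG00000257017.10, chr16:72054505-72061055, plus strand) lay with 100% of its TSS window and 88.9% of its body in peaks. One peak of 8770 bp, from 5664 bp upstream to 3105 bp downstream of the TSS, filled the window, and 3.37% of all peaks were as wide. Of all protein-coding genes, 44 (0.22%) had a fully covered window, which was the case for 0.779% of the genes in the same quartile of CpG content. In the canonical transcript, 6 of 7 exons lay entirely in peaks and exon 5 in part, so that 94.3% of the exonic and 87.2% of the intronic bases were covered.

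HPR encodes the haptoglobin-related protein, which circulates on a class of high-density lipoprotein. In HPR (ENSG00000261701.9, chr16:72063148-72077246, plus strand) the cover was 87.8% of the TSS window and 65.2% of the body. Unlike in HP, the TSS base was not inside a peak. It lay in a gap of the peaks, with 1 peak of 4660 bp ending 148 bp upstream, and the next of 2420 bp beginning 463 bp downstream. Exons 2, 3 and 4 of the 5 canonical exons were fully within peaks, but only 36.2% of exonic bases were covered, against 68.4% of intronic bases. Together, the span from HP to HPR of 22.742 kb had 5 peaks, which covered 74.6% of it.

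Within 100 kb of either haptoglobin TSS, 11 peaks covered 22.5% of the sequence. In the window of 100 kb beyond both genes 49.4 peaks were listed per Mb, while chromosome 16 as a whole had 15.01. None of the other 5 protein-coding genes that overlap this window had a peak within 2.5 kb of its TSS. One of them, TXNL4B on the opposite strand, has a body (chr16:72044289-72094431) that contains HP and HPR entirely. Its body had 7 peaks and 64.7% cover, while its TSS window had a cover of 0. The peaks carry no strand and cannot be assigned to one of these overlapping genes.

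**Figure D2:**
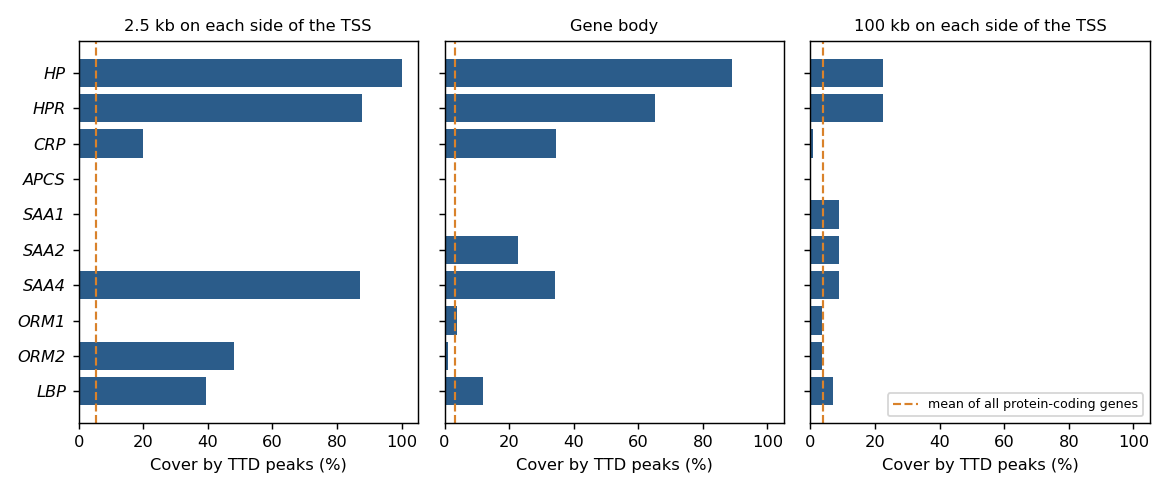
Percent of the TSS window, of the gene body and of the 100 kb on each side of the TSS that lay in TTD peaks, for each of the 10 genes (bars), with the mean of all protein-coding genes as a dashed line (5.30, 3.39 and 3.91%). HP, HPR and SAA4 stand at 100, 87.8 and 87.2% in the TSS window, and APCS has no bar in any panel.

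The pentraxins CRP and APCS encode ring-shaped proteins that recognise bacterial surfaces and damaged cells. C-reactive protein is the classical marker of inflammation, and APCS encodes serum amyloid P component, which binds amyloid deposits. CRP (ENSG00000132693.12, chr1:159712289-159714589, minus strand) had a single peak of 1750 bp, from 1509 to 3258 bp downstream of the TSS. It covered 19.8% of the TSS window and 34.4% of the body, but 0 of the upstream 2.5 kb. The peak was narrower than the median of the list, and CRP had a cover of 0 in all windows when such peaks were left out. All of the overlap with the gene, 792 bp, was in exon 2, the last exon of the canonical transcript, and the peak ran past the 3' end of the gene. This was the only peak within 100 kb of the CRP TSS, and the cover at that scale was 0.875%.

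APCS (ENSG00000132703.4, chr1:159587826-159588865, plus strand) had no peak in its TSS window, in its body or within 100 kb. The nearest peak was the one in CRP, 123505 bp from the APCS TSS. The CRP surroundings had 4.94 peaks per Mb and the APCS surroundings 0, while chromosome 1 as a whole had 10.7. These rates stand for 1 and 0 peaks, and 65.9% of all protein-coding genes had at least the cover of CRP within 100 kb. Without replicates or scores, the lack of a peak holds only for the cutoffs of the authors and their removal of artifacts and large false positives by hand.

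SAA1 and SAA2 encode the inducible serum amyloid A proteins, and SAA4 the constitutive one, all of which are carried on high-density lipoprotein. In SAA4 (ENSG00000148965.10, chr11:18231355-18236802, minus strand), a peak of 6440 bp spanned the TSS from 4578 bp upstream to 1861 bp downstream, and 7.66% of all peaks were as wide. It covered 87.2% of the TSS window and 34.2% of the body, including exons 1 and 2 of 4. As much cover of the TSS window was found in 80 genes (0.399% of all, and 1.36% of those in the same CpG quartile).

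The TSS windows of SAA1 (ENSG00000173432.13, chr11:18266260-18269977, plus strand) and SAA2 (ENSG00000134339.9, chr11:18239223-18248668, minus strand) had a cover of 0. The nearest peak to the SAA1 TSS ended 2700 bp upstream, just outside the window, and had a width of 1140 bp. The SAA1 body was not covered. SAA2 had 22.8% of its body in a peak, but this was the peak at the SAA4 TSS, which begins 7288 bp downstream of the SAA2 TSS. It lay beyond the canonical SAA2 transcript of 3429 bp, in a longer annotated form of the gene. The readthrough gene SAA2-SAA4 overlaps 99.7% of SAA2 and 98.8% of SAA4, and its own TSS window had a cover of 0.

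All of the SAA genes shared 5 peaks within 100 kb, with a cover of 8.92%. Over the cluster and 100 kb beyond it 25.1 peaks were listed per Mb, while chromosome 11 as a whole had 9.11. Of the other 5 protein-coding genes that overlap this window, only MRGPRX3, which encodes an orphan receptor, had a peak in its TSS window, covered to 92.3%.

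ORM1 and ORM2 encode orosomucoid, or alpha-1-acid glycoprotein, a lipocalin that carries basic and neutral compounds in plasma. ORM1 (ENSG00000229314.6, chr9:114323098-114326479, plus strand) had no peak in its TSS window, while 48.2% of the window of ORM2 (ENSG00000228278.5, chr9:114329869-114333251, plus strand) was covered. This cover was entirely upstream, where 96.5% of the 2.5 kb lay in a peak, and 0 of the 2.5 kb downstream did. The peak, of 3430 bp, fills most of the interval between the 2 genes. It began 129 bp before the 3' end of ORM1 and ended 89 bp before the TSS of ORM2. A second peak, of 1880 bp, began 41 bp before the 3' end of ORM2.

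Thus each ORM gene body was covered only at its end, to 3.81% in ORM1 and 1.21% in ORM2, with exon 6, the last one, partly in a peak. To show the similarity of the sequences at these places, 150 bases after each gene are given, with the differing base in capitals. They begin at base 1 after ORM1 and at base 6 after ORM2. The start after ORM2 was the one with the most identical bases among those tried.
ORM1: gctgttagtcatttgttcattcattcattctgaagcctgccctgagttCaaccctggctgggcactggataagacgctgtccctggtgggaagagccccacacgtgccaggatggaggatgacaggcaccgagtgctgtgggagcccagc
ORM2: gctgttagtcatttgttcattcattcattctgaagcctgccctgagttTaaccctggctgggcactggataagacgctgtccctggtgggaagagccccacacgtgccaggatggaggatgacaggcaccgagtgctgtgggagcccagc
These bases (hg38, chr9:114326480-114326629 after ORM1 and chr9:114333257-114333406 after ORM2, plus strand) lay in peaks to 100% and were identical at 149 of 150 positions. The TSS windows of the pair also resembled each other, with 92.3% identity over 4511 aligned bases, although their cover was 0 and 48.2%. The upstream parts were 86.3% identical, with a cover of 0 for ORM1 and 96.5% for ORM2. In the SAA1 and SAA2 pair, the windows were 87.8% identical over 4152 aligned bases and both had a cover of 0.

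Reads that lie wholly in identical stretches cannot be placed with certainty, so runs of 100 bases that occur at another position of hg38 were counted. The authors sequenced paired-end reads longer than these runs, so the shares are not shares of sequence where reads could not be placed. They made up 22.3% of the TSS window of ORM1 and 26.6% of that of ORM2. Within the ORM2 window the share was 22.3% inside peaks and 30.6% outside. In the peak between the ORM genes it was 39.6%, and in the peak after ORM2 51.0%. The share was 21.4% for the window of SAA1, 21.9% for SAA2, 14.4% for HP and 11.7% for HPR, and in the HP body it reached 39.1%. It was 0 in the windows of SAA4, APCS and LBP and 1.06% in that of CRP. The peaks at SAA4, CRP and LBP had a share of 0. How repeated sequence affected the calling of peaks was not tested.

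LBP encodes the lipopolysaccharide-binding protein, which passes bacterial endotoxin to CD14. LBP (ENSG00000129988.6, chr20:38346482-38377013, plus strand) had its TSS inside a peak of 1340 bp, which reached from 1111 bp upstream to 228 bp downstream. With a second peak of 2450 bp further upstream, 39.6% of the TSS window was covered, 70.0% of its upstream and 9.12% of its downstream part. The TSS peak was among the narrower ones, since 76.0% of all peaks were as wide, and without the peaks below the median width 12.8% of the TSS window and 0 of the body were covered. Of the body, 11.8% was covered by 3 peaks, which included exons 1 and 5 entirely and exon 10 in part, out of 15 exons.

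Around LBP there were 43.4 peaks per Mb, but chromosome 20 itself had 22.8 per Mb, and the cover of 6.89% was similar to the 7.04% of the chromosome. A peak in the TSS window was listed for 32.2% of the protein-coding genes of chromosome 20. For the other chromosomes with acute-phase genes this share was 13.5% on chromosome 11, 13.8% on chromosome 9, 15.9% on chromosome 1 and 21.1% on chromosome 16. Copy number of these chromosomes in HepG2 cells was not measured here, and the methods state no correction for it. BPI, which adjoins LBP and encodes a related endotoxin-binding protein, had a cover of 0 in its TSS window.

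Peaks also lay at the 3' ends of genes, although several of these were peaks already counted at a TSS. In 6 of the 10 genes (HP, HPR, CRP, SAA2, ORM1 and ORM2), the last base lay inside a peak, against 3.05% of all protein-coding genes. For SAA2 this is the end of the longer form, and the peak is the one at the SAA4 TSS. The ends of HP and ORM1 were in peaks that also reached the TSS windows of HPR and ORM2. The end of CRP was in the peak that reached its own TSS window. The share of all genes was not restricted to short genes.

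The cover by TTD peaks declined in windows wider than 2.5 kb on each side of the TSS. Averaged over the 10 genes, it was 37.7% within 1 kb, 38.3% within 2.5 kb, 36.5% within 5 kb, 31.5% within 10 kb, 24.8% within 25 kb, 15.8% within 50 kb, 8.67% within 100 kb and 6.43% within 200 kb. For all protein-coding genes the mean was between 3.88 and 5.30% over these windows. The haptoglobin genes contributed much of the cover at all sizes. Without them the mean was 25.9% within 1 kb, 24.4% within 2.5 kb, 25.2% within 5 kb, 19.0% within 10 kb and 5.21% within 100 kb.

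**Figure D3:**
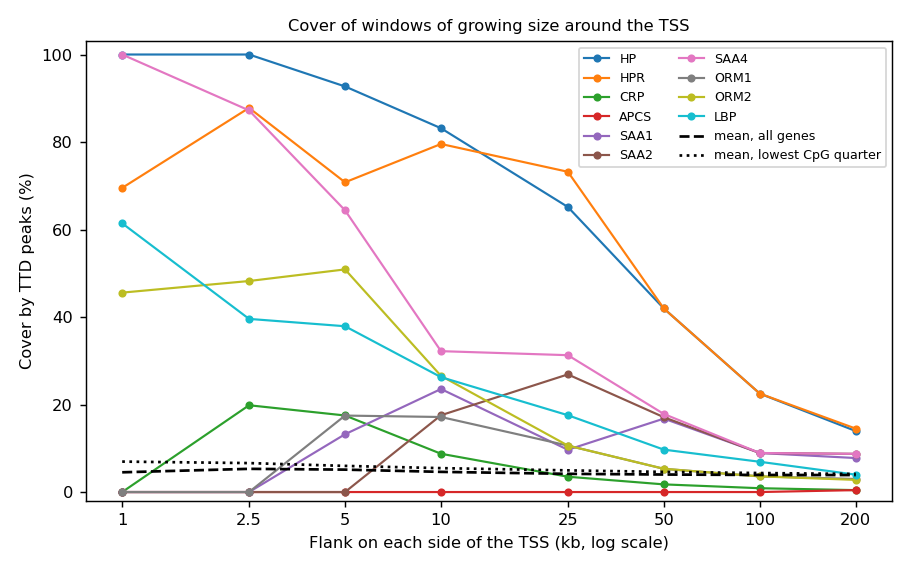
Percent of windows around the TSS covered by TTD peaks, against the flank on each side in kb (log scale), for each acute-phase gene (coloured lines), the mean of all protein-coding genes (dashed) and the mean of the lowest quartile by CpG content (dotted). HP and SAA4 start at 100% within 1 kb, CRP, SAA1, SAA2 and ORM1 start at 0 and have cover only in wider windows, and APCS stays at 0 up to 100 kb.

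In SAA1 the cover rose from 0 within 2.5 kb to 13.2% within 5 kb and 23.5% within 10 kb. ORM1 had 17.5% within 5 kb, and SAA2 17.6% within 10 kb. Hence the genes without a peak in the TSS window fell into APCS, which was far from any peak, and SAA1, SAA2 and ORM1, which had peaks between 2.5 and 10 kb from the TSS.

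The widths of the peaks were set beside those of the whole list. The 28 distinct peaks within 100 kb of a TSS had a median width of 1910 bp, and 13 of them (46.4%) were at or above the median of the whole list, 2250 bp. In the TSS windows there were 8 distinct peaks with a median width of 2940 bp, 6 of them (75%) at or above that median. A wider peak more readily reaches a window of fixed size, and the same share for the TSS windows of all genes is not given here. In the gene bodies, 12 distinct peaks ranged from 1340 to 8770 bp.

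The acute-phase genes had few CpG sites around their TSS. The ratio of observed to expected CpGs in the 1 kb around the TSS was between 0.132 (SAA4) and 0.262 (HPR), with a median of 0.201, against 0.688 over all protein-coding genes. All 10 were in the lowest quartile of 5009 genes, whose ratio goes up to 0.329. In this quartile 15.1% of genes had a peak in the TSS window, against 15.5, 20 and 17.1% in the next higher ones. In the lowest quartile the mean cover was 6.62%, and in 7.09% the TSS lay inside a peak. Of the genes with the most cover of the TSS window, HP had a ratio of 0.136, HPR the highest ratio of the 10 and SAA4 the lowest.

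**Figure D4:**
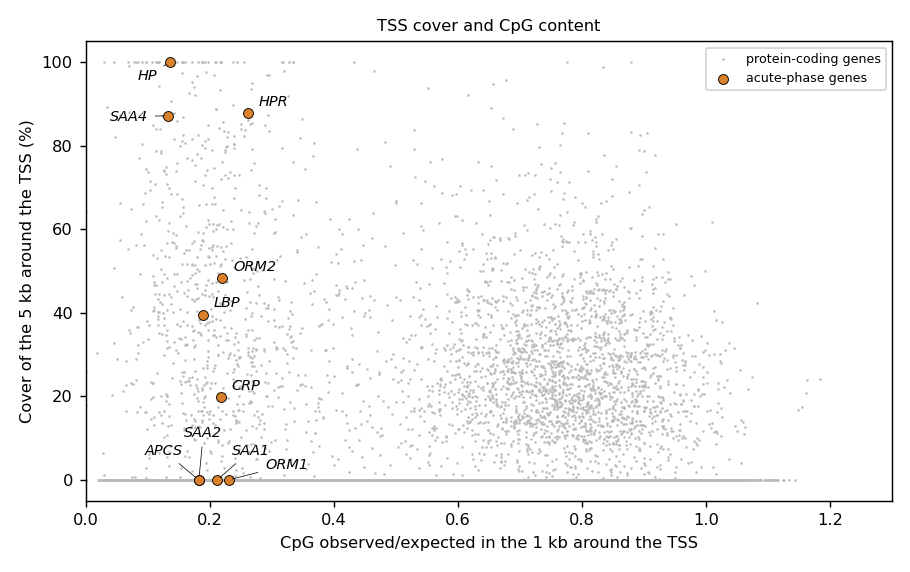
Percent of the TSS window covered by TTD peaks against the ratio of observed to expected CpGs in the 1 kb around the TSS, for protein-coding genes (grey dots) and the 10 acute-phase genes (orange). The acute-phase genes lie between 0.132 and 0.262 on the CpG axis and spread from 0 to 100% in cover.

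The other genes of the acute phase were grouped into lists by their roles. Of 23 genes for positive acute-phase proteins (whose plasma level rises) that are not among the 10, 14 had a TTD peak in the TSS window (60.9%, Wilson interval 40.8 to 77.8%), against 16.9% of all genes, and the median cover was 56.9%. The largest cover was found in MBL2 with 100%, the mannose-binding lectin of complement activation, in CPB2 with 100%, a carboxypeptidase that slows fibrinolysis, and in FGB with 90.8%, the beta chain of fibrinogen. The TSS lay inside a peak in 9 genes of this list, against 2.94% of all genes and 7.09% of those in the lowest CpG quartile. Negative acute-phase proteins, whose level falls, had a peak in 7 of 13 genes (53.8%, 29.1 to 76.8%), beside the same 16.9%, with a median cover of 24.4%. Among them, ALB (albumin) reached 100%, AFP (alpha-fetoprotein) 85.0% and RBP4 (the retinol carrier) 43.8%. Peaks were thus listed at genes of both directions of the response.

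Of 22 genes for cytokine receptors, kinases and transcription factors, 3 had a peak in the TSS window (13.6%, 4.75 to 33.3%), a share near the 16.9% of all genes. These were IL1R1 (85.7%), the receptor of interleukin-1, CEBPA (15.9%), a transcription factor of hepatocytes, and STAT3 (12.2%), the transcription factor downstream of interleukin-6. The median cover was 0. Receptors and binding partners of the acute-phase proteins had a peak in 4 of 11 genes (36.4%, 15.2 to 64.6%, against 16.9% of all genes), led by LY96 (60.2%) and CD14 (55.6%), which take part in endotoxin sensing, and the Fc receptor gene FCGR2A (36.8%). Without the peaks below the median width, 2 of these 11 genes had one, beside 7.29% of all genes.

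Structural relatives, that is other pentraxins, proteins with the BPI fold and lipocalins, had a peak in 6 of 32 genes (18.8%, 8.89 to 35.3%), a share near the 16.9% of all genes, with a median cover of 0. The most covered were BPIFB2 (100%) and BPIFB1 (54.8%), of the BPI family, and CETP (52.6%), the cholesteryl ester transfer protein. The TSS lay inside a peak in 2 of the 13 negative acute-phase genes, 1 of the 22 signalling genes, 2 of the 11 receptors and 4 of the 32 relatives. Among all genes this share was 2.94%, and in the lowest CpG quartile 7.09%. RBP4 and LCN2 are each counted in 2 lists. In the lowest CpG quartile were 19 of the 23 positive and 9 of the 13 negative acute-phase genes, 4 of the 22 signalling genes, 9 of the 11 receptors and 20 of the 32 relatives. The differences between the lists were not tested.

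**Figure D5:**
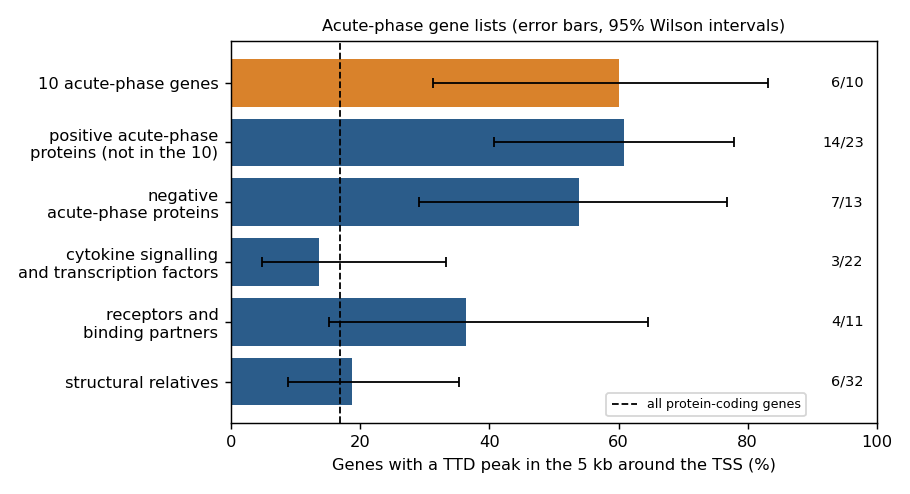
Percent of genes with a TTD peak within 2.5 kb of the TSS in the 10 acute-phase genes (orange) and the lists of related genes (blue), with 95% Wilson intervals as error bars and counts at the right. The dashed line is the share of all protein-coding genes (16.9%), and the bars stand, from the top, at 60, 60.9, 53.8, 13.6, 36.4 and 18.8%.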

How the data were processed

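TTD CIDOP, H3K9me2 ChIP and input of HepG2 cells comprised 2 biological replicates each. According to the labels and methods, the authors trimmed reads with Trimmomatic 0.38, checked them with FastQC 0.72, mapped them to hg38 with HISAT2 2.2.1, computed RPKM in 10 bp bins with deepTools 3.3.2, averaged the 2 TTD replicates, called broad peaks with MACS2 2.1.1 at fixed cutoffs, and removed blacklisted regions and, by hand, artifacts and large false positives. The deposited values are the positions and widths of 31569 peaks in bp, and the depth behind each peak is unknown. Signal tracks were not analysed here.

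From this list, cover and peak counts were computed for the GENCODE release 44 gene body, 2.5 kb and 100 kb on each side of the TSS (the 5' end of the gene). The procedures gave exact results in 200 of 200 simulated sets. Python 3.11.15, numpy 2.4.6, pandas 2.3.3, scipy 1.17.1 and matplotlib 3.10.9 were used. All 10 acute-phase genes are named, and from each list the 3 genes with the largest cover of the TSS window, with ties resolved by the gene body. The genes and lists were chosen with earlier results of these data known. With 1 pooled list, no test between samples could be made.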

Additional observations from a re-analysis of the deposited data

How the results depend on the processing

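The counts of acute-phase genes with a peak in the TSS window (5 to 8, with 5 also at 1 kb and 8 at 5 kb on each side, where 11.1 and 22.1% of all genes had one) and within 100 kb (8 to 10), and of genes with the TSS in a peak (2 to 4), stayed within 1.5 times of the reported ones under all alternatives. When peaks narrower than the median (2250 bp) were left out, genes with a peak in the body fell from 8 to 5, the median cover of the TSS window from 29.7 to 6.39%, and the receptors with a peak from 4 to 2, while CRP lost its peak and LBP kept 12.8% of its TSS window and 0 of its body. Peaks at or above the median width were in the TSS window of 7.29% of all genes. With canonical transcript spans the body count was 7, and SAA2 was lost. Without the haptoglobin locus the mean cover of the TSS window was 24.4% in place of 38.3%, and without another locus 38.1 to 42.5%. The wide-peak and canonical-TSS counts of the lists, the canonical spans and the left-out loci were chosen after seeing the data. No paired analysis was possible because the peak list used here was called on the mean of both TTD replicates and the tracks of single libraries were not analysed here, and for the same reason no replicate could be left out.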
